A study of Mus musculus with 20 samples.

Results

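Cytosolic ribosomal protein genes encode the protein part of the 80S ribosome, and they were taken here from the counts of mRNA reads in mouse brain. A gene was a member if its symbol was *Rps* or *Rpl* followed by a number, with the endings a, x, l or l1 allowed, or was *Rpsa*, *Rplp0*, *Rplp1* or *Rplp2*. Symbols of named pseudogenes were left out. This gave 85 of the 47729 genes in the files: 30 of the small (40S) subunit, 43 of the large (60S) subunit, 3 of the large subunit's stalk, 6 like-named paralogs and 3 loci that GENCODE annotates as processed pseudogenes despite their names (*Rps4l*, *Rps12l1* and *Rpl6l*).

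The libraries came from hippocampus and cortex of 5 WT mice (numbered 1 to 5) and 5 Ube3aOE mice (6 to 10), all C57Bl/6J pups at postnatal day 7, so that 20 libraries stand for 10 animals. Ube3aOE mice carry a bacterial artificial chromosome transgene with extra copies of *Ube3a*, a ubiquitin ligase gene, and its flanking sequence, next to their own alleles, and WT mice carry none. The labels do not say which founder line was sequenced. Each library held 14191093 to 16752326 counts on genes.

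*Ube3a* followed the labels: it was at 57.1 to 76.8 CPM (counts scaled to a common library size) in WT hippocampus against 142 to 195 in Ube3aOE hippocampus, and at 54.4 to 70.0 in WT cortex against 130 to 182 in Ube3aOE cortex. Counts of sex-linked genes went against the labelled sex in 2 WT mice, 3 and 5, in both tissues. The cortex library of WT mouse 2 stood apart, with 69.7% of its reads on genes. In hippocampus, 7 hippocampal marker genes were all higher than in cortex, and 5 of 6 neocortical markers were lower. Markers of neighbouring tissue were uneven between hippocampus libraries. The summed level of 8 choroid plexus genes was 1981 CPM in Ube3aOE mouse 7 and 359 CPM in mouse 9, against 14.5 to 36.9 in the other hippocampus libraries. That of 7 striatal genes was 530 CPM in mouse 9. That of 6 thalamic genes was 1267 CPM in mouse 10, 639 in mouse 7 and 533 in WT mouse 4.

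Ribosomal proteins are made in matched amounts, and most of their mRNAs begin with a run of pyrimidines, the 5' terminal oligopyrimidine tract, through which the growth-control kinase mTORC1 regulates their translation. Translation in growing neurons draws on large numbers of ribosomes. Individual proteins also have known roles beyond structure: *Rps6* encodes a target of S6 kinases, *Rpl5* and *Rpl11* encode proteins that bind the p53 regulator MDM2, *Rpsa* encodes the protein once described as the laminin receptor, and *Rplp0*, *Rplp1* and *Rplp2* encode the stalk that recruits elongation factors.

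The windows below show the annotated start of 6 of the 8 members with the largest difference between regions. A 5' terminal pyrimidine tract would lie at the start. Each has 15 bases before the start and 15 from the start on, from RefSeq on GRCm38.p6, written 5' to 3' on the gene's strand. The longest run of C and T is in capitals, wherever it lies in the window. *Rplp1* and *Rps29* had no entry.
Rpl41 (chr10:128549154-128549183, minus): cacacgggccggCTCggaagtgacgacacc
Rps19 (chr7:24884577-24884606, plus): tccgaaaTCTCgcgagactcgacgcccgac
Rpsa (chr9:120127751-120127780, plus): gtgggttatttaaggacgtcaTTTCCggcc
Rps27 (chr3:90213634-90213663, minus): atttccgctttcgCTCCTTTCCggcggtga
Rpl27a (chr7:109519180-109519209, plus): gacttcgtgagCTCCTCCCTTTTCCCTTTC
Rpl35 (chr2:39005117-39005146, minus): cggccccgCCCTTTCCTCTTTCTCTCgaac

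The runs in these windows ranged from 3 bases in *Rpl41* to 19 in *Rpl27a*. In *Rpl41* and *Rps19* the marked run lay wholly before the annotated start, and in *Rpsa* wholly after it. Those of *Rps27*, *Rpl27a* and *Rpl35* spanned it. Of 62 members with an entry, 40.3% had a C and T run of at least 8 bases in the window, against 11.9% of 27025 genes in the table. The motif CCGGAAG, searched on both strands of the 300 bases around the start, was in 38.7% of the members and 9.12% of all genes. The motif AAGATGG, on both strands, was in 14.5% and 6.48%, and TATAAA on the gene's strand in 9.68% and 8.88%. Annotated starts can lie some bases from the start used in a tissue, so these shares describe windows.

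Members took up 1.06% to 1.51% of the gene counts of a library. The share was 1.31% ± 0.10 (SD, n = 5) in WT cortex, 1.33% ± 0.11 in Ube3aOE cortex, 1.29% ± 0.05 in WT hippocampus and 1.20% ± 0.12 in Ube3aOE hippocampus. These ranges overlapped.

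Levels were compared between genes as CPM per kilobase of a gene's merged exons, with libraries scaled by the trimmed mean of M values (TMM). Of the 85 members, 79 passed the filter on low counts. Their median level was 69.7, against 4.70 for all 15620 tested genes with a length. The levels of the members ranged from 14.4 to 1076, and the 90th percentile was 5.75 times the 10th in the average library.

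**Figure D1:**
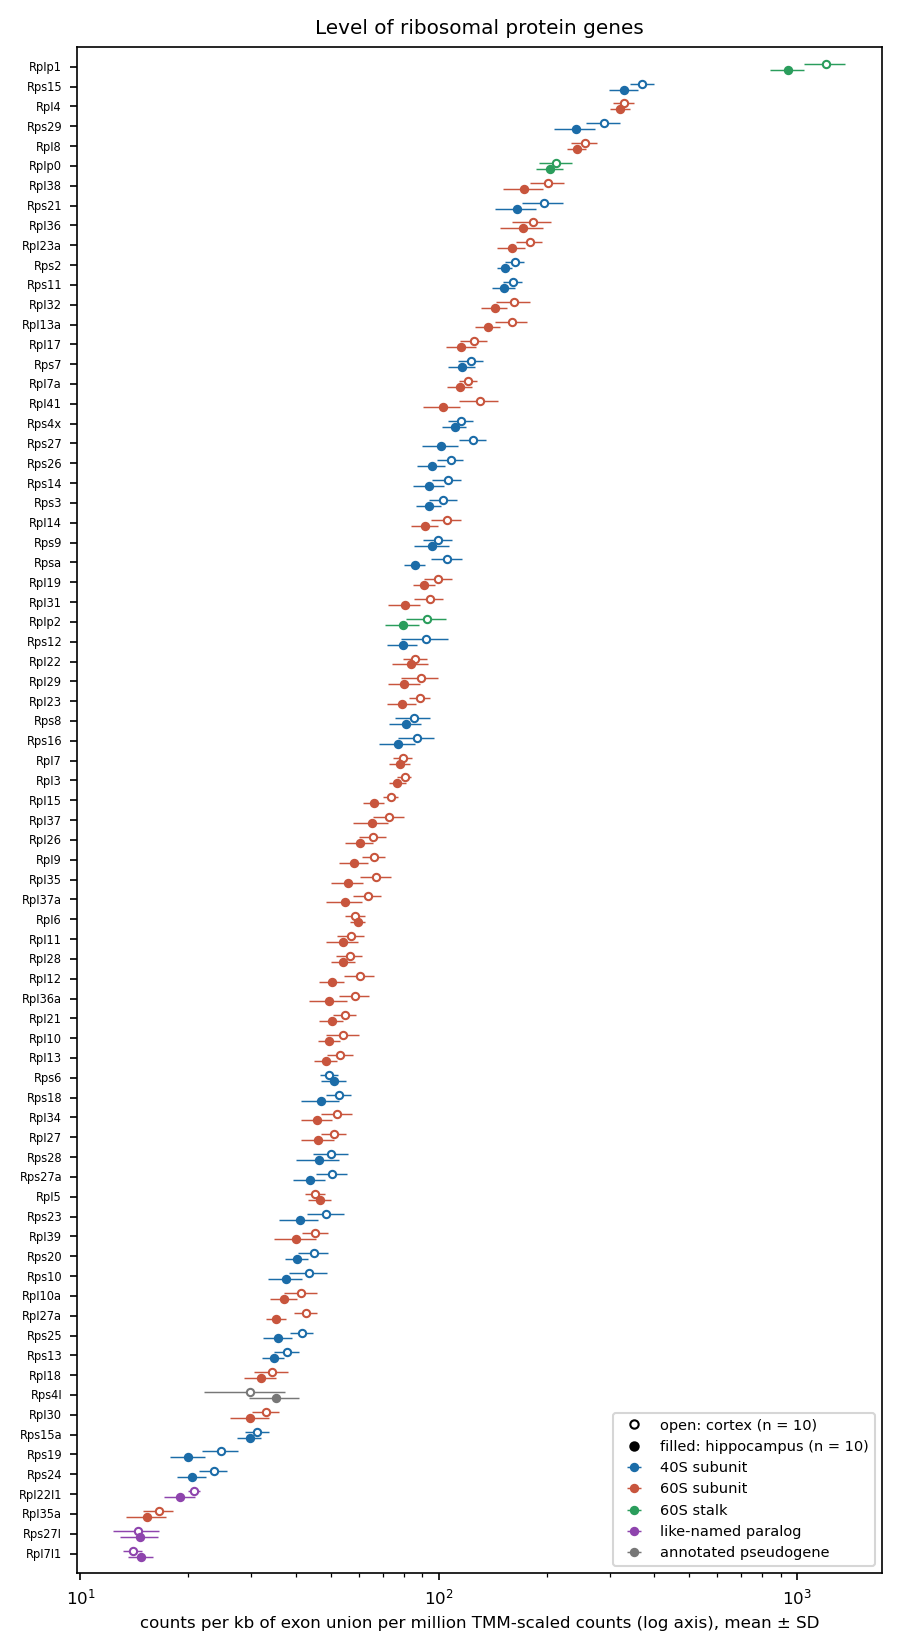
Level of 76 of the 79 members that passed the filter, in CPM per kilobase of exon after TMM scaling on a log axis, as mean ± SD over 10 cortex libraries (open) and 10 hippocampus libraries (filled), coloured by subunit. *Rplp1* lies apart at the top, the paralogs lie at the bottom, and the filled points lie mostly to the left of the open ones.

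*Rplp1*, a stalk protein gene, was the highest at 1076 ± 187 (SD, n = 20), and its lowest library (770) lay above the highest of the next member. The next were *Rps15* at 350 ± 35.04, *Rpl4* at 325 ± 21.5, *Rps29* at 265 ± 39.5 and *Rpl8* at 249.5 ± 19.1. Each of these neighbours overlapped in its range over libraries with the next below it. The stalk partners *Rplp0* and *Rplp2* were at 209 ± 20.2 and 86.3. This order depends on the length used. Per base not shared with other annotated transcripts, *Rps27* and *Rpl9* were the highest, *Rplp1* ranked 3, and *Rps15*, *Rpl4*, *Rps29* and *Rpl8* ranked 20, 29, 19 and 45. That measure divides a gene's whole count by its 50-base stretches not shared, which were 4 in *Rps27* and 46 in *Rpl9*. Such small numbers raise the value, so these ranks do not give an order of expression. Median levels per merged exon length were 84.5 for the small subunit and 65.9 for the large.

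The 3 expressed paralogs were at the low end per merged exon length. *Rpl22l1*, *Rps27l* and *Rpl7l1* were at 19.9 ± 1.70, 14.6 ± 1.91 and 14.4 ± 1.08. Only *Rpl35a* (16.0 ± 1.85) among the subunit genes tested lay between them. This too depends on the length used. Per annotated principal transcript *Rpl35a* was at 108.5, against 71.6, 23.8 and 19.3 for the paralogs in the same order.

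The remaining 6 members did not pass the filter. *Rpl10l* had 0 counts in every library, *Rps12l1* 0 to 1, *Rpl6l* 0 to 4, *Rpl39l* 0 to 6 and *Rpl3l* 0 to 8. *Rpl24*, which encodes a large subunit protein, had 3 to 16. In GENCODE M21, 71.5% of the main transcript of *Rpl24* lies under *Gm28037*, a transcript on the same strand with 0 counts in every library. Reads over more than 1 gene were not counted, so the level of *Rpl24* here may not be that of its mRNA; this was not tested. *Rpl13a* lies under *Gm45713* over 59.3% of its main transcript and had 4214 to 6208 counts. The annotation behind the counts is not given, so whether either overlap applied to them is not known.

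Many members also resemble pseudogenes, and reads that aligned to several places were not counted. Of the 85 members, 42 shared over 50% of their 50-base stretches with other annotated transcripts. The highest shares were 100% in *Rps12l1* and, among members that passed the filter, 98.7% in *Rps27*. Rows whose symbol marks a ribosomal protein pseudogene with -ps (270 of them) held 0.00528% to 0.00805% of a library's gene counts. Pseudogenes with Gm names are not among these rows. As reads aligned to several places are left out, this share does not measure what members lost to pseudogenes.

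The question for the regions was whether members differ between hippocampus and cortex. Of 79 tested members, 48 were lower in hippocampus and 0 were higher (edgeR quasi-likelihood test over all 20 libraries, Benjamini-Hochberg adjusted *P* under 0.05). In the background of 15661 genes, 25.6% were lower and 25.3% were higher. With DESeq2, also 48 members were lower and none was higher. With an unadjusted *P* under 0.05, 52 were lower and 0 were higher, against 28.5% and 27.8% of genes. The differences were small: the median log2 fold change over the members was -0.15, against -0.01 over all genes, and 77 members had a 95% confidence interval inside ±0.5, against 61.7% of genes. With the mouse as a replicate block, 56 members were lower and 1, *Rps4l*, was higher, against 28.4% and 27.4% of genes. Without WT mice 3 and 5, which leaves fewer samples, 22 were lower. The share of all genes in that fit is not given here. Fewer cells of a type and less RNA per cell cannot be told apart in bulk tissue.

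By subunit, 20 of 30 small-subunit genes, 25 of 42 large-subunit genes and 2 of 3 stalk genes were lower in hippocampus, with medians of -0.17, -0.15 and -0.23. Within mice, 27 members were lower in hippocampus in all 10 animals and none was higher in all 10. For all genes these shares were 13.4% and 14.8%. No member had all hippocampus libraries below all cortex libraries (3.74% of genes did).

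*Rplp1* was at 498 to 730 CPM in cortex (median 606, n = 10) and 384 to 521 in hippocampus (median 492). It was lower in hippocampus in 10 of 10 mice, with a log2 fold change of -0.35 ± 0.08 (SE) and an adjusted *P* of 0.00055 from edgeR. *Rpl41*, which encodes a very short and basic large-subunit protein, was at 125 to 195.5 CPM in cortex (median 150) and 96.8 to 141 in hippocampus (median 119). Its log2 fold change was -0.34 ± 0.07 (adjusted *P* = 0.00049, edgeR). *Rpsa* was at 292 to 387 CPM in cortex (median 336) and 237 to 294 in hippocampus (median 268). Its log2 fold change was -0.30 ± 0.05 (adjusted *P* = 8.6e-05, edgeR). The ranges of the regions overlapped for these genes, while the lines of all 10 mice fell.

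*Rps19*, a small-subunit gene whose human counterpart is mutated in Diamond-Blackfan anaemia, fell by 0.30 on the log2 scale, and *Rps27* also fell by 0.30. *Rpl27a* fell by 0.28, *Rps29* by 0.27 and *Rpl35* by 0.26. All were lower in hippocampus in 10 of 10 mice. Of the stalk, *Rplp2* fell by 0.23 (adjusted *P* = 0.015, edgeR), a call lost without mouse 2 (adjusted *P* = 0.063), and *Rplp0* was at -0.06 ± 0.06 (adjusted *P* = 0.40, edgeR).

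**Figure D2:**
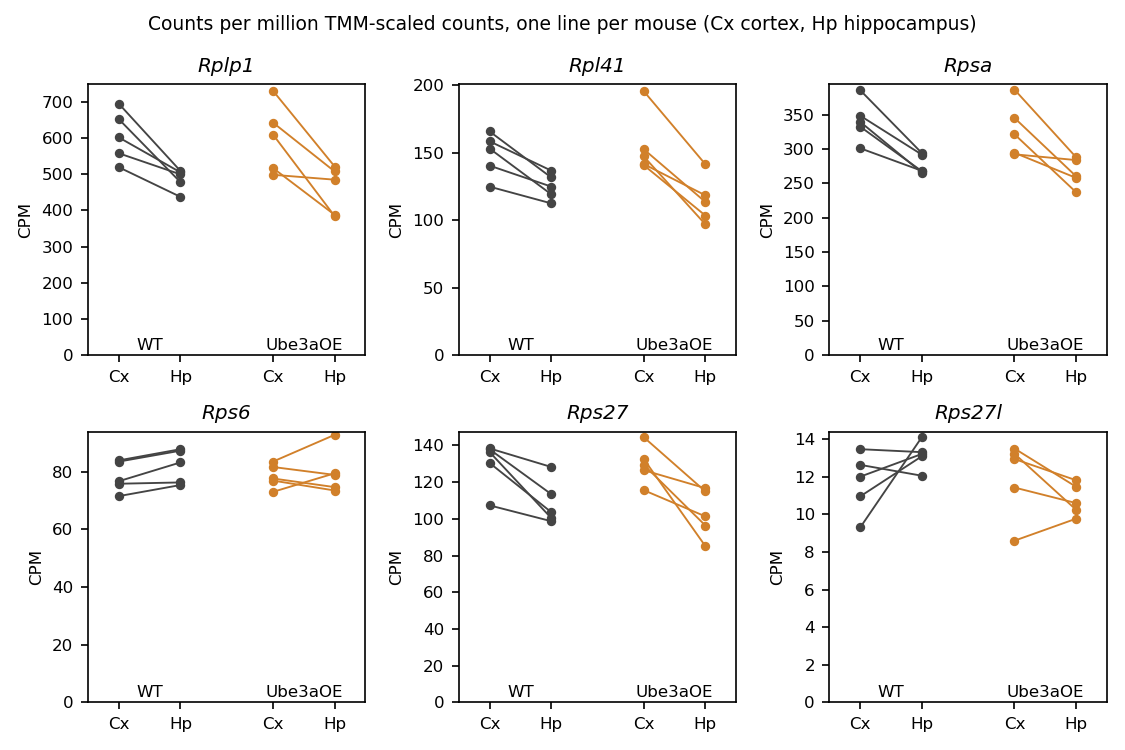
CPM of 6 members in cortex (Cx) and hippocampus (Hp), with 1 line per mouse, WT in grey and Ube3aOE in orange, on axes from 0. The lines of *Rplp1*, *Rpl41*, *Rpsa* and *Rps27* fall in all 10 mice, and those of *Rps6* and *Rps27l* run both ways.

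The estimate was below 0 for 73 members, against 50.8% of all genes. The 6 members with an estimate above 0 were *Rps4l*, *Rpl7l1*, *Rps6*, *Rpl5*, *Rpl6* and *Rps27l*, and none passed the test. With the mouse as a replicate block and a trend of the counts with length and GC content of the transcripts removed, *Rps6* was called higher in hippocampus (0.09, adjusted *P* = 0.038, edgeR). *Rps6* was at 71.6 to 84.0 CPM in cortex and 73.5 to 92.9 in hippocampus, with a log2 fold change of 0.05 ± 0.05. *Rpl5* was at 0.04 ± 0.05, and its partner in the 5S RNA complex, *Rpl11*, at -0.08 ± 0.06. *Rps4l* was at 0.24 ± 0.12.

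The same contrast was fitted in the mice of each genotype, which share no animal. In WT mice, 9 members were lower in hippocampus and 1, *Rpl7l1*, was higher, against 17.6% and 20.4% of 15088 genes. In Ube3aOE mice, 20 were lower and 0 were higher, against 12.5% and 14.4% of 15147 genes. With the mouse as a replicate block, 22 were lower and 2 higher in WT mice, against 20.1% and 22.9% of genes. In Ube3aOE mice, 47 were then lower and 1 higher, against 15.8% and 16.6%. The median log2 fold change was -0.08 in WT mice and -0.19 in Ube3aOE mice.

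These counts changed with the mouse left out, which also leaves fewer samples, and shares of all genes in those fits are not given here. Leaving out 1 mouse gave 4 to 11 called members in WT mice, with 4 when mouse 3, 4 or 5 was left out. It gave 2 to 23 in Ube3aOE mice, with 2 without mouse 10, 4 without mouse 6, 5 without mouse 8 and 11 without mouse 9. Without WT mice 3 and 5, 0 members were called in WT mice.

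**Figure D3:**
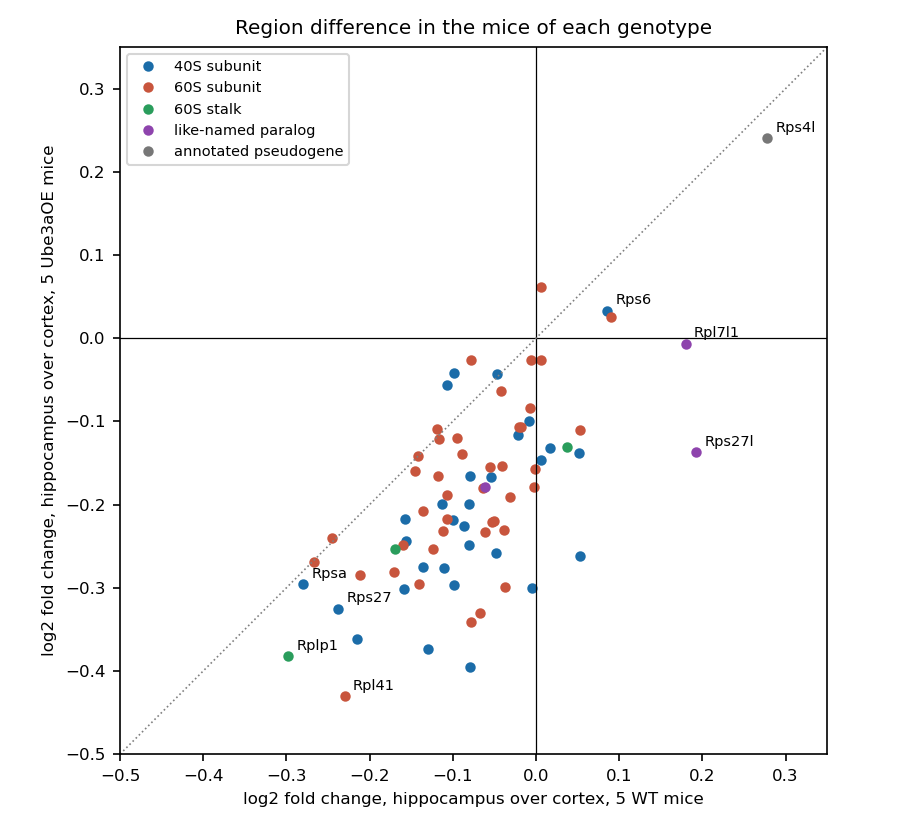
Log2 fold change of hippocampus over cortex for the 79 tested members, in 5 WT mice (horizontal) and 5 Ube3aOE mice (vertical), coloured by subunit, with the dotted line marking equal values. Most points lie below 0 on both axes and below the dotted line, with medians of -0.08 and -0.19, and *Rps4l* lies above 0 on both.

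The interaction asks whether the genotype difference differs between regions. No member passed it, as no gene did (0% of 15661). With DESeq2, no member passed it either. With an unadjusted *P* under 0.05 there were 3 members, among them *Rps28* and *Rpl37a*, against 3.77% of all genes. Blocking on the mouse gave 20 members with an unadjusted *P* under 0.05, against 6.03% of all genes, and still none after adjustment. Without the block, the unadjusted count of 3 became 1 to 7 with 1 mouse left out. It was 7 without mouse 2 or 7, 5 without mouse 9 and 1 without mouse 5, 8 or 10. With the length and GC trend removed it was 9 without the block and 15 with it. Of the 79 estimates, 69 were below 0 (49.8% of all genes), with a median of -0.10.

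The study compared genotypes within each tissue. In hippocampus, no member passed the test (0.00657% of 15220 genes did, which is *Ube3a* alone), with edgeR or with DESeq2. With an unadjusted *P* under 0.05 there were 14 members, all lower in Ube3aOE mice, against 3.5% of genes lower and 3.71% higher. The number with an unadjusted *P* under 0.05 changed with the mouse left out, which also leaves fewer samples. It was 46 without mouse 7, 5 without mouse 8, 6 without mouse 3 or 10, 7 without mouse 2 and 8 without mouse 5 or 9. It was 8 with the length and GC trend removed and 3 without WT mice 3 and 5. The shares of all genes in these fits are not given here. The estimate was below 0 for 73 of 79 members, against 49.3% of all genes, with a median of -0.12. All 79 intervals lay inside ±0.5, against 69.9% of all genes.

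Among the smallest *P* values were those of *Rps27l*, *Rpl38* and *Rpl26*. *Rps27l* was at 14.1, 12.1, 13.3, 13.1 and 13.2 CPM in WT mice 1 to 5 and 10.6, 11.5, 11.8, 9.78 and 10.2 in Ube3aOE mice 6 to 10. The groups did not overlap, as was the case in this direction for 2 members and 0.632% of all genes. Its log2 fold change was -0.29 ± 0.09 (adjusted *P* = 0.67, edgeR).

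*Rpl38* was at -0.25 ± 0.09 and *Rpl26* at -0.18 ± 0.06. The highest estimates were those of *Rps4l* at 0.22 ± 0.12, *Rpl3* at 0.04 ± 0.06, *Rpl10a* at 0.02 ± 0.08 and *Rpl6* at 0.01 ± 0.06.

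In cortex, again no member passed the test (0.00669% of 14947 genes did), and 0 had an unadjusted *P* under 0.05, against 4.44% of genes. The estimate was below 0 for 43 of 79 members, against 48.6% of all genes, with a median of -0.002, and 78 intervals lay inside ±0.5 (73.8% of all genes). *Rpl35a* was at -0.10 ± 0.08, *Rpl23a* at -0.10 ± 0.07 and *Rps24* at -0.09 ± 0.07. *Rps4l*, whose interval reached 0.69, was at 0.25 ± 0.20, *Rps28* at 0.10 ± 0.09, *Rps16* at 0.08 ± 0.09 and *Rpl37a* at 0.07 ± 0.07.

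**Figure D4:**
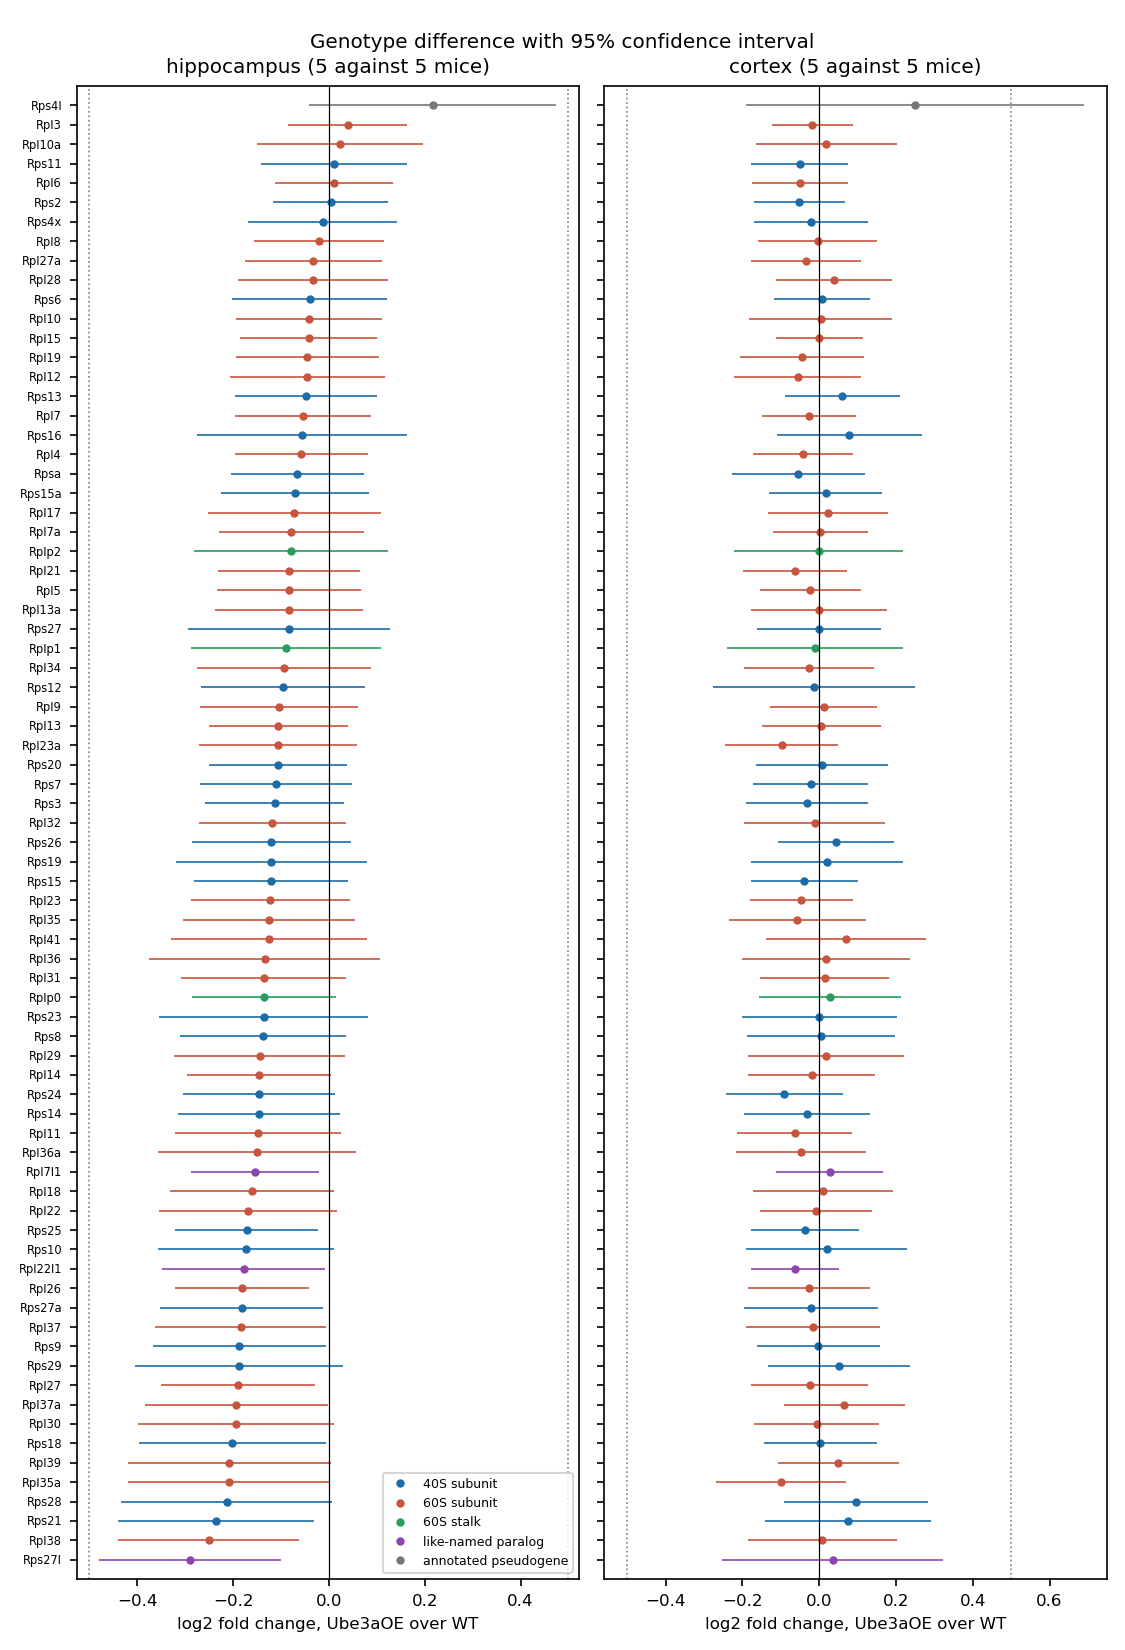
Log2 fold change of Ube3aOE over WT for 76 of the 79 tested members with its 95% confidence interval, in hippocampus (left) and cortex (right), in the order of the hippocampus estimates, with dotted lines at ±0.5. Of the estimates drawn, 70 lie left of 0 in hippocampus and 42 in cortex, and the interval of *Rps4l* in cortex crosses the dotted line.

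The members varied together. After the mean of each group was taken out, the median correlation between a pair of members over the 20 libraries was 0.79. The mean was 0.74, and all 3081 pairs were above 0. The mean over all pairs of tested genes was 0.000266. It is no baseline for genes of like level and length, for which no value was computed. The share of all gene pairs above 0 was not computed either. All these correlations share libraries and their scaling. *Rps4l* and *Rpl7l1* followed the others least, with mean correlations of 0.32 and 0.35.

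In single libraries, the median deviation of the 79 members from their mean over all libraries ran from -0.32 (log2 CPM) in the hippocampus of Ube3aOE mouse 10, where 0 members were above their mean, to 0.28 in the cortex of Ube3aOE mouse 7, where 78 were. In Ube3aOE hippocampus it was -0.06, 0.06, -0.20, -0.13 and -0.32 in mice 6 to 10. It ranged from -0.09 to 0.07 in WT hippocampus.

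Another library property is set beside this deviation. The slope of all genes' deviations on transcript length (log2 CPM per doubling) was 0.016, -0.016, 0.061, 0.036 and 0.071 in the hippocampus of mice 6 to 10, and -0.040 to 0.020 in WT hippocampus. In cortex the slope was -0.091 to 0.019 in WT mice and -0.022 to 0.020 in Ube3aOE mice. The 2 measures did not always go together. The cortex of Ube3aOE mouse 7, with the highest median deviation (0.28), had a slope of -0.022. The hippocampus of WT mouse 4 had a slope of -0.038 and a median deviation of -0.05. Most member mRNAs are short. With the trend on length and GC content removed, the median genotype difference in hippocampus was -0.07 and 64 of 79 estimates were below 0. Without mouse 10, which also had the highest thalamic marker sum, the median was -0.06. Without mouse 7, which had the highest choroid plexus sum, it was -0.17. With the trend removed, 47 members were lower in hippocampus than in cortex, and the share of all genes in that fit is not given here. The part of transcript length or of marker tissue in these results was not tested.

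**Figure D5:**
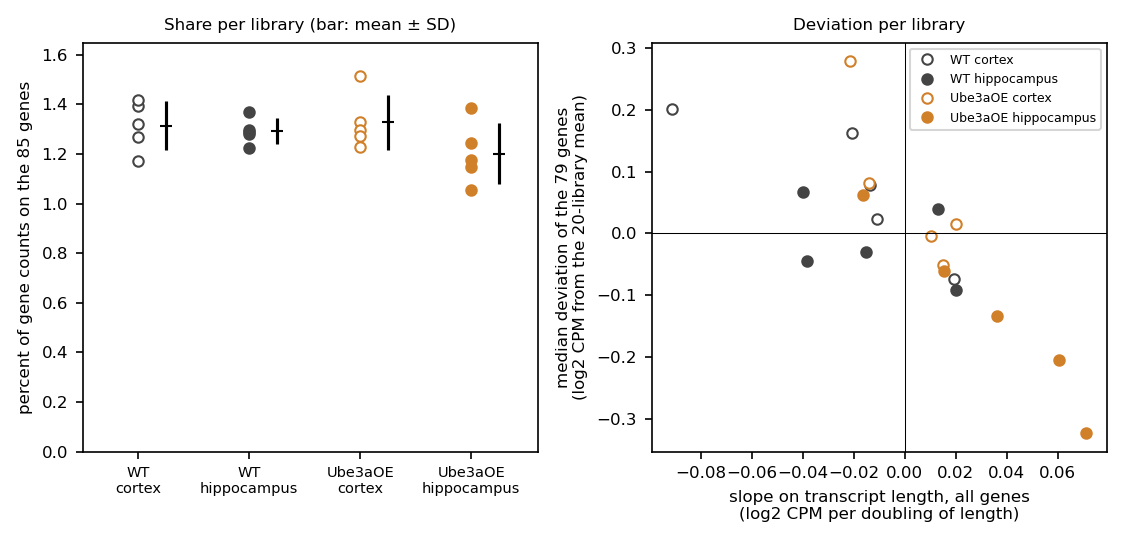
Left, percent of gene counts on the 85 members in each library, with the mean ± SD of 5 libraries beside the points. Right, median deviation of the 79 tested members (log2 CPM) against each library's slope on transcript length, open for cortex and filled for hippocampus, WT in grey and Ube3aOE in orange. The libraries with the steepest positive slopes, Ube3aOE hippocampus of mice 8 and 10, have the lowest medians.

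Some paralogs can replace their parent protein in a ribosome, so the ratio of paralog to parent was examined. In coding sequence, *Rps27l* was identical to *Rps27* at 76.1% of aligned bases, *Rpl22l1* to *Rpl22* at 72.7%, *Rpl7l1* to *Rpl7* at 64.9%, *Rpl3l* to *Rpl3* at 74.9%, *Rpl39l* to *Rpl39* at 85.3% and *Rpl10l* to *Rpl10* at 84.8%. *Rpl3l*, *Rpl39l* and *Rpl10l* reached at most 0.367%, 0.979% and 0% of their pair's summed level.

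*Rps27l* made up 8.69% to 11.3% of its pair in cortex libraries of either genotype, and 10.4% to 15.5% in hippocampus. The log2 ratio of *Rps27l* to *Rps27* was higher in hippocampus in 10 of 10 mice, by 0.32 ± 0.24 (SD). The two-sided exact sign-flip permutation test gave *P* = 0.00195, the smallest that 10 mice allow, and an adjusted *P* of 0.0059 over 3 pairs. *Rps27* itself was lower in hippocampus, and *Rps27l* was at 0.01 ± 0.08 (SE). Of the pair's 50-base stretches, 98.7% in *Rps27* and 22.4% in *Rps27l* were shared with other transcripts.

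*Rpl22l1* made up 16.8% to 20.9% of its pair, and its ratio differed by -0.09 ± 0.12 between regions (95% interval -0.18 to -0.008). It was higher in hippocampus in 2 of 10 mice, with an exact permutation *P* of 0.039 and an adjusted *P* of 0.059, which was 0.018 without mouse 2 and 0.035 without mouse 7. *Rpl7l1* made up 13.9% to 17.9%, and its ratio differed by 0.10 ± 0.14 (interval -0.005 to 0.20, exact permutation *P* = 0.061, adjusted 0.061, or 0.023 without mouse 8). The shares of the pairs are per merged exon length and depend on the length used. Per principal transcript, *Rpl22l1* was at 71.6 against 120 for *Rpl22*, and *Rpl7l1* at 19.3 against 182 for *Rpl7*. *Rps27l* was at 23.8 against 342 for *Rps27*.

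Between genotypes, none of 6 ratios (3 pairs in each tissue) passed an exact permutation test over mice, whose smallest possible *P* is 0.0079. The largest difference was that of *Rps27l* to *Rps27* in hippocampus, at -0.20 ± 0.13 (SE, exact permutation *P* = 0.17, adjusted 0.57).

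Ribosomal protein genes outside the symbol rule included *Fau*, *Rps3a1* and *Rpl36al*. Lower in hippocampus were *Fau* (-0.24 ± 0.06) and *Rpl36al* (-0.18 ± 0.06), and *Rps3a1* was at -0.10 ± 0.05 without passing the test.

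Of 77 tested mitochondrial ribosomal protein genes, which serve the separate ribosome of mitochondria, 31 (40.3%) were lower in hippocampus and 4 were higher, against 25.6% and 25.3% of all genes, with a median of -0.09. *Mrps24* and *Mrpl33* fell by 0.30, and *Mrpl1* and *Mrpl17* were higher by 0.19 and 0.17. In the genotype comparison in hippocampus 0 of them passed, with 71 of 77 estimates (92.2%) below 0, against 49.3% of all genes, and a median of -0.08.

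Of 39 ribosome biogenesis genes, 11 (28.2%) were lower, near the 25.6% of all genes. Only 3 of the 39 were higher, against 25.3% of all genes. *Mdn1*, a pre-60S remodelling ATPase gene, was at -0.46 ± 0.09, and *Fbl*, the rRNA methyltransferase fibrillarin, at -0.41 ± 0.06. *Lsg1* and *Rrn3* were higher by 0.19 and 0.17. Of 20 translation factor genes, 5 (25%), again near the share of all genes, were lower (*Eef1a2* at -0.21, *Eif3h* at -0.15). Only 1 of the 20 was higher (*Pabpc1*, 0.13), against 25.3% of all genes. Of 14 growth-control genes, 6 (42.9%) were lower, among them *Rps6kb2* (-0.42 ± 0.09) and *Myc* (-0.33 ± 0.09), and 3 were higher, among them *Eif4ebp2* (0.20 ± 0.04) and *Tsc2* (0.14 ± 0.05). No gene of these lists passed between genotypes in either tissue.

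Cell type markers also differed between regions. Of 5 neuronal markers 4 were lower in hippocampus, where their summed level was 5791 to 7271 CPM against 7223 to 8481 in cortex. Of 5 astrocyte markers 4 were higher (1041 to 1578 CPM against 678 to 909), and of 7 genes of dividing cells 6 were higher (91.7 to 117 CPM against 70.7 to 82.5). Of 5 microglial markers 3 were higher, of 5 vessel markers 1 was lower and of 5 blood markers none passed. Of 5 immature neuron markers 3 were higher and 1 was lower. Their summed level nevertheless had lower medians in hippocampus (970 CPM in WT and 981 in Ube3aOE mice) than in cortex (1061 and 1096). The ranges of that sum overlapped. Of 4 tested oligodendrocyte lineage markers 2 were higher. The part of all these markers in the difference of the ribosomal protein genes was not tested.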

How the data were processed

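The authors deposited raw counts per gene, 1 file per library, and 5 lines for uncounted reads, which were left out here. The submitters' processing notes name HISAT2 2.1.0, HTSeq 0.11.2 and the builds GRCm38 and mm10. The annotation and strand setting are not given in the sources used here. Libraries were stranded mRNA (TruSeq). Counts were filtered with filterByExpr, scaled by TMM and tested with edgeR 4.0.16 (robust quasi-likelihood F test, R 4.3.3) over all genes, with Benjamini-Hochberg adjustment. CPM are counts divided by the TMM-scaled library size, in parts of 1e6. Standard errors and 95% intervals came from the F statistic. The fits were tested on simulated data. DESeq2 1.42.0, limma 3.58.1 voom, other filters and scalings, a length and GC correction, sex, the mouse as block and single mice left out were alternatives. Hippocampus and cortex libraries with 1 number come from the same animal by the labels. Deviations from group means correlated within mice at -0.0367 to 0.248 over all genes. Over the members they correlated at -0.462 to 0.153 in WT mice and 0.217 to 0.667 in Ube3aOE mice. Positions, overlaps and shared stretches came from GENCODE M21 and cover annotated transcripts alone. For promoter shares, members used the start nearest their GENCODE 5' end, other genes their first entry. The members, lists and tests were chosen with earlier results of these data known. Named genes were the 8 called members with the largest region difference in each direction, the 4 smallest *P* values per tissue and direction, the 5 highest and lowest levels, paralogs, genes with known roles and, per other list, the 2 largest called differences in each direction. *Rack1*, of the genes outside the rule, was not analysed here, and some genes that this rule names are not reported here.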

Additional observations from a re-analysis of the deposited data

Results flagged for a closer look

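In groups of 5 libraries, a value was marked when it lay far from the nearest other value relative to the group's range. Of 160 groups of values searched, 7 were marked, and chance marks about 1 in 20, which gives 8. In the cortex of WT mouse 1, *Rps27* was low at 107 CPM and *Rpl35* at 68.5 CPM. In the cortex of Ube3aOE mouse 7, *Rpl41* was high at 195.5 CPM, *Rpl38* at 129 CPM, *Rpl39* at 76.0 CPM and *Rpl11* at 173 CPM. In the hippocampus of the same mouse, *Rpl35* was high at 81.1 CPM.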

How the results depend on the processing

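The count of members called between regions (48) ran from 32 to 50 with each mouse left out and was 22 without the mice whose sex-linked counts go against the label. In WT mice, the count of 10 ran from 4 to 11 with each mouse left out. It was 20 with the length and GC trend removed, 24 with the mouse as a replicate block, 32 with the block and the trend removed together, and 0 without WT mice 3 and 5, which leaves fewer samples. In Ube3aOE mice, the count of 20 ran from 2 to 23 with each mouse left out, was 48 with the block and 37 with the block and the trend removed. The block left the called count for the interaction at 0. It was not fitted between genotypes within a tissue, where each mouse gives 1 library. Of the named genes the block added *Rpl10* to those lower and *Rps4l* to those higher in hippocampus. The causes were not tested, and shares of all genes are not given for the fits without mice or with the trend removed. Genotype and interaction calls among members stayed at 0 under all alternatives run. The intervals inside the border numbered 78 to 79 in hippocampus and 78 in cortex with each mouse left out.

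With each mouse left out, the regional ratio differences ran from 0.28 to 0.36 for *Rps27l*, from -0.116 to -0.0747 for *Rpl22l1* and from 0.0697 to 0.126 for *Rpl7l1*; the latter pairs passed the threshold in 2 and 1 of these fits. The genotype differences of the ratio ran from -0.0574 to 0.0123 for *Rpl22l1* in hippocampus and from -0.00761 to 0.0986 for *Rps27l* in cortex. Among named genes, the region estimate of *Rps27l* ran from -0.0259 to 0.0520, and that of *Rpl7l1* was -0.00490 with the trend removed and -0.00467 with the block as well. Genotype estimates in hippocampus ran from -0.0362 to 0.0759 for *Rpl10a* and from -0.0214 to 0.0423 for *Rpl6*, and in cortex from -0.000534 to 0.0981 for *Rpl37a*. None of these passed a test. The 5.75-fold spread of levels was 6.75 per longest transcript, 11.2 per base not shared, and 4.04 per principal transcript, an alternative chosen after seeing the data. The value per base not shared includes members with few such stretches, 4 in *Rps27*. Shared stretches and uncounted ambiguous reads limit levels between genes, and 5 animals a group limit the genotype tests.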
